A study of Mus musculus with 6 samples.

Results

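Small leucine-rich proteoglycans are a family of secreted matrix proteins, and the transcripts of 10 family genes were followed here in C2C12 muscle cells with and without lenvatinib. The genes are Bgn, Dcn, Aspn, Ecm2, Prelp, Omd, Fmod, Ogn, Tsku and Podnl1. They were picked by name, with their change under lenvatinib already known, so their values in this contrast are given as a description without a test of their own. All 10 have a row among the 56792 gene rows of the deposited table, and all 10 were among the 14989 rows with enough counts for the fit.

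A small leucine-rich proteoglycan has a core protein built of leucine-rich repeats, and many members carry chondroitin, dermatan or keratan sulfate chains. The core proteins bind collagen fibrils and set their diameter and spacing, and several also hold growth factors such as transforming growth factor beta (TGF-beta) in the matrix. The family is divided into classes by gene structure and cysteine pattern: biglycan (Bgn), decorin (Dcn), asporin (Aspn) and Ecm2 are placed in class I, fibromodulin (Fmod), PRELP (Prelp) and osteomodulin (Omd) in class II, osteoglycin (Ogn) in class III, tsukushi (Tsku) in class IV and podocan-like 1 (Podnl1) in class V. In muscle, decorin is known for binding myostatin and TGF-beta, and biglycan for its contact with the dystrophin-associated complex.

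C2C12 is a mouse myoblast line, labelled wild type, whose cells fuse into myotubes in medium with horse serum. Both groups were differentiated for 4 days; 3 libraries came from untreated cells and 3 from cells given 1 µM lenvatinib, an inhibitor of the receptor kinases for vascular endothelial and fibroblast growth factors and of related kinases. The labels do not say whether the libraries came from separate cultures, so the errors and p-values measure how far these libraries differ, which may be technical variation only. Whether a solvent control was used is not labelled. Gene counts summed to between 24566768 and 32406563 per library. All 8 fixed muscle markers were detected, with a summed level of 13144 to 13597 CPM in untreated and 13515 to 13746 CPM in lenvatinib libraries, most of it Myh3 and Des. Single markers moved both ways between the groups, 5 called higher and 2 lower. CPM is a gene's counts relative to its scaled library total, fold changes are lenvatinib over untreated, each SE is from the edgeR fit, and chromosome positions are printed as deposited, without a build.

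The class II genes Omd, Fmod and Prelp had the largest differences of the 10, with 5.63-fold, 5.60-fold and 3.32-fold higher transcript levels in lenvatinib cells. Ogn was 1.81-fold, Ecm2 1.58-fold and Aspn 1.33-fold higher. Bgn, the most abundant member, was 1.2-fold lower. Podnl1 and Tsku were 1.07-fold and 1.06-fold higher and Dcn 1.06-fold lower, and these 3 were not called at an adjusted p of 0.05 in the edgeR fit over all rows. In all, 6 of the 10 were called higher and 1 lower; over all tested rows 28.2% were called, 13.3% higher and 14.9% lower. Among the members Omd, Fmod and Prelp were called and at least 2-fold higher; of all tested rows 2.72% were called with at least a 2-fold change and 0.867% with such a rise. Since the genes were chosen with these values known, nothing is read from the difference between these shares. The median log2 fold change was 0.53 over the members and 0.00274 over all tested rows.

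**Figure D1:**
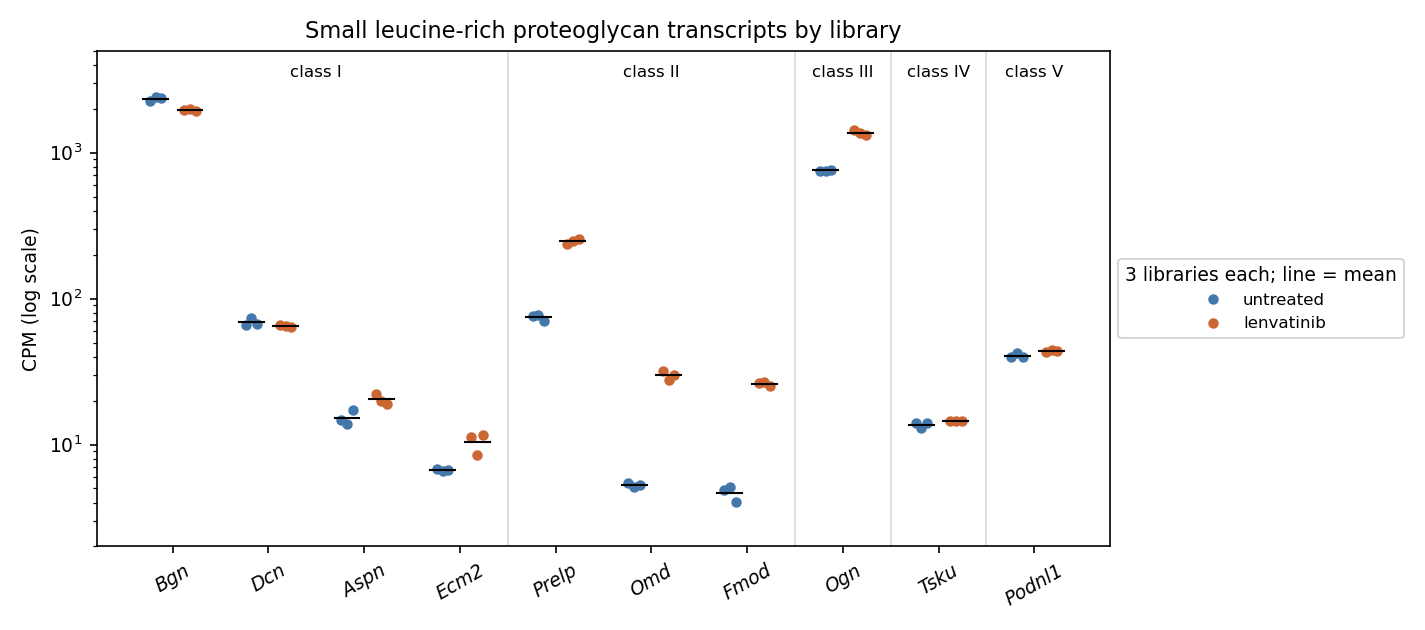
CPM (log scale) of each of the 10 genes in the 3 untreated (blue) and 3 lenvatinib (orange) libraries, grouped by class; points are libraries and lines are group means. The orange points lie above the blue ones for Prelp, Omd, Fmod and Ogn with wide gaps, and Bgn is the member whose lenvatinib points, 1943 to 1980 CPM, all lie below the untreated ones.

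Omd encodes osteomodulin (osteoadherin), a keratan sulfate proteoglycan first known from bone matrix. Its transcript, on chromosome 13 from 49735938 to 49746298, stood at 5.49, 5.13 and 5.25 CPM in the untreated and at 31.9, 27.7 and 29.9 CPM in the lenvatinib libraries. Every lenvatinib library lay far above every untreated one, and the log2 fold change of 2.49 ± 0.08 (SE) was the 6th largest of all tested rows. Fmod encodes fibromodulin, which binds type I collagen and restrains fibril growth in tendon. It lies on chromosome 1 from 133964992 to 133976015 and stood at 4.85, 5.13 and 4.07 CPM in untreated and at 26.3, 26.9 and 25.4 CPM in lenvatinib libraries. The groups did not overlap, and the log2 fold change of 2.49 ± 0.09 was the 7th largest. Both genes were scarce in untreated cells, with 117 to 151 counts per library, so counting error alone gives a coefficient of variation of 8.37% for Omd and 8.92% for Fmod there.

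Prelp encodes a proline- and arginine-rich protein that binds collagen and the heparan sulfate of basement membranes. On chromosome 1 (133838042 to 133849152) it stood at 75.7, 77.6 and 69.7 CPM in untreated and at 238, 248 and 255 CPM in lenvatinib libraries. The lowest lenvatinib library was above the highest untreated one by a wide margin, with a log2 fold change of 1.73 ± 0.04. With 1981 counts or more in every library, its level rests on deeper counting than those of Omd and Fmod.

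Ogn encodes osteoglycin (mimecan), a secreted factor of bone, vessel and muscle matrix that is processed by bone morphogenetic protein 1. On chromosome 13 (49761522 to 49777977) it stood at 754, 748 and 767 CPM in untreated and at 1434, 1355 and 1321 CPM in lenvatinib libraries. The groups were far apart, with a log2 fold change of 0.86 ± 0.03. Its gain in level, from 756 ± 9.56 to 1370 ± 57.8 CPM (SD, n = 3), was the largest of the 10 genes, in CPM and per kilobase.

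The sequences before the starts of these 4 genes, and of Bgn for contrast as the member that was lower, show what the regions share and where they differ. They are the 250 bases upstream of the RefSeq start in build GRCm38.p6, which is not the build of the deposited positions; the RefSeq table held such a sequence for 8 of the 10 genes. Each is written 5′ to 3′ on the gene's strand, with matches to any of 7 searched motifs in capitals.
Omd, chr13:49582212-49582461, plus strand: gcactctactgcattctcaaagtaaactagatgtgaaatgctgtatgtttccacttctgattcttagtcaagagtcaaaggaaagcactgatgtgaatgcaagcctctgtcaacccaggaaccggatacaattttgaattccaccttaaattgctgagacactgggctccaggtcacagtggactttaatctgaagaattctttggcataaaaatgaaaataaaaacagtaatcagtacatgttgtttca
Fmod, chr1:134037004-134037253, plus strand: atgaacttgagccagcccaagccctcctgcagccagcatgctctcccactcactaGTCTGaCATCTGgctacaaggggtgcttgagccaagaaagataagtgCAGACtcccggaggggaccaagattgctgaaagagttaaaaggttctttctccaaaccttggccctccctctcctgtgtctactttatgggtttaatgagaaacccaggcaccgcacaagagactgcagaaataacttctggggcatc
Prelp, chr1:133921402-133921651, minus strand: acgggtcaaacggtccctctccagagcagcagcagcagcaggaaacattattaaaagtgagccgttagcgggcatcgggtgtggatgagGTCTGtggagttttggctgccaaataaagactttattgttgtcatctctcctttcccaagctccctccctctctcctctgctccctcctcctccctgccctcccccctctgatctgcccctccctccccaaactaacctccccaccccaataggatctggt
Ogn, chr13:49607765-49608014, plus strand: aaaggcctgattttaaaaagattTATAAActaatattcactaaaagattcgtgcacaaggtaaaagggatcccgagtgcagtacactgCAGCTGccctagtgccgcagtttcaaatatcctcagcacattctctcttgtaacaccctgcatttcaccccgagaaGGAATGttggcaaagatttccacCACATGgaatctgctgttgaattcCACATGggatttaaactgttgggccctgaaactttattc
Bgn, chrX:73483351-73483600, plus strand: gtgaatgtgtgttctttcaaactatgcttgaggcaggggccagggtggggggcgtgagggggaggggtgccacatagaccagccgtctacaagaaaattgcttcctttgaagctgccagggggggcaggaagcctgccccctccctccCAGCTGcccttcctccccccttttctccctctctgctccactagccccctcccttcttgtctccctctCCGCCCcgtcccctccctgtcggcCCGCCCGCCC

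The motifs searched were the TATA box (TATAAA, gene strand only) and, on both strands with overlaps allowed, the AP-1 site (TGANTCA), the TEAD site (GGAATG), the Smad site (CAGAC), the E-box (CANNTG), the GC box (GGGCGG) and the CArG box by its usual consensus. The Smad site was found before Fmod and Prelp among the 8 genes and in 42.2% of all 32841 sequences of this length. The E-box was found before Aspn, Bgn, Fmod and Ogn (66.2% of all), the GC box before Bgn, Ecm2 and Tsku (32.7%), the TATA letters before Aspn and Ogn (7.59%) and the TEAD site before Ogn (12.6%). None of the 8 held the AP-1 letters (6.75% of all) or the CArG box (1.47%), which says only that these letters are not in these windows. Omd held none of the 7 motifs. Base composition varied widely: GC content was 38.4% before Omd, 42% before Ogn, 30% before Aspn and 40% before Ecm2, against 64.4% before Bgn and 68 and 69.2% before the 2 listed starts of Tsku, which was not called, with a median of 52.4% over all sequences. Prelp (55.6%) and Fmod (51.2%) lay near that median. Omd, Ogn, Aspn and Ecm2 are neighbours on chromosome 13, and a link between base composition and fold change was not tested.

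Bgn and Dcn are the class I proteoglycans with chondroitin or dermatan sulfate chains. Bgn, on chromosome X from 72527208 to 72539539, stood at 2274, 2418 and 2355 CPM in untreated and at 1956, 1980 and 1943 CPM in lenvatinib libraries. All lenvatinib libraries were lower, and the log2 fold change was -0.26 ± 0.02. Dcn, on chromosome 10 from 97315471 to 97354005, stood at 65.5, 73.8 and 66.5 CPM in untreated and at 65.6, 65.1 and 64.4 CPM in lenvatinib libraries. The groups overlapped, and the untreated spread came mostly from the second library (log2 fold change -0.08 ± 0.04).

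Aspn and Ecm2 complete class I. Aspn encodes asporin, which has an aspartate stretch and inhibits TGF-beta, and it stood at 14.7, 13.8 and 17.3 CPM in untreated and at 22.2, 19.97 and 18.9 CPM in lenvatinib libraries (chromosome 13, 49697919 to 49721041). The groups did not overlap, with the third untreated and the third lenvatinib library closest to each other, and the log2 fold change was 0.41 ± 0.08. Ecm2 stood at 6.77, 6.58 and 6.64 CPM in untreated and at 11.2, 8.43 and 11.7 CPM in lenvatinib libraries (chromosome 13, 49658286 to 49686265). The second lenvatinib library was the lowest of its group yet above all untreated ones. Its log2 fold change was 0.66 ± 0.11, with a coefficient of variation of 16.9% among lenvatinib libraries where counting error alone gives 5.9%.

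Tsku and Podnl1 changed little. Tsku encodes a secreted inhibitor of bone morphogenetic protein and Wnt signals and stood at 14.0, 12.9 and 14.2 CPM in untreated and at 14.6, 14.4 and 14.5 CPM in lenvatinib libraries (chromosome 7, 97999875 to 98010535). Podnl1 stood at 39.9, 42.2 and 40.0 CPM in untreated and at 43.4, 44.1 and 43.6 CPM in lenvatinib libraries (chromosome 8, 84852618 to 84859156). In both genes every lenvatinib library was slightly above every untreated one, by log2 fold changes of 0.08 ± 0.08 and 0.10 ± 0.05, neither of them called. In total the groups did not overlap in 9 of the 10 genes, 8 higher and 1 lower, where 40.1% of all tested rows did not overlap (19.6% higher and 20.5% lower).

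**Figure D2:**
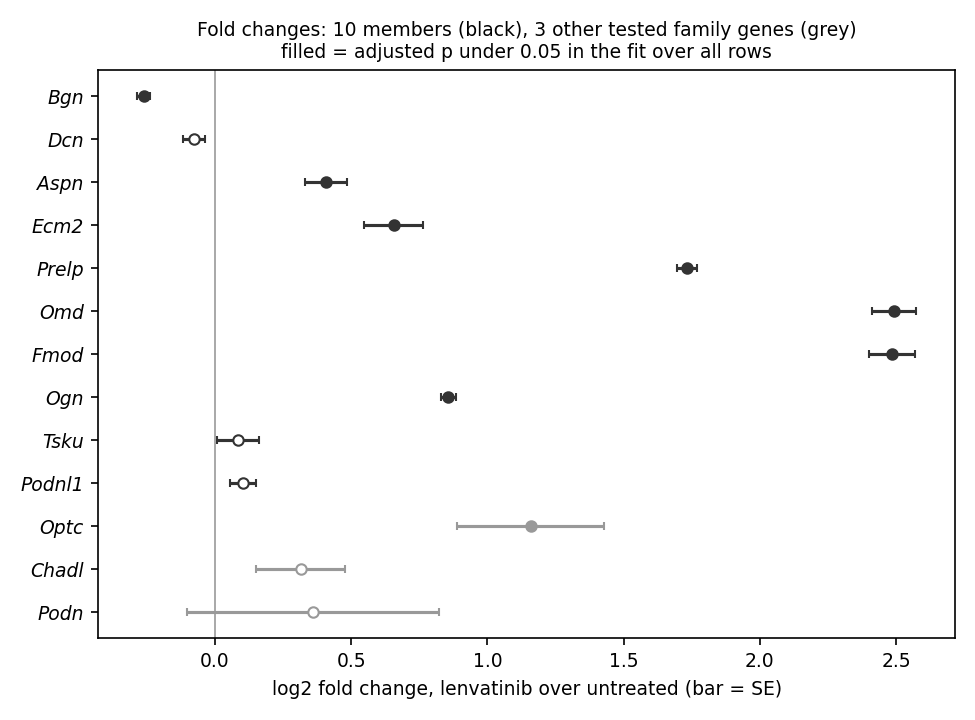
Log2 fold change (lenvatinib over untreated, horizontal axis) with its SE for the 10 genes in black and for the 3 other family genes with enough counts in grey; filled points passed an adjusted p of 0.05 over all rows. Omd and Fmod stand at 2.49, Prelp at 1.73, and Bgn at -0.26 is the filled point left of 0.

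The rest of the family had few or no counts. Of 9 further family genes, 3 had enough for the fit, and 1 of them, Optc, was called. Optc, which encodes the class III protein opticin, had 18, 16 and 20 counts in untreated and 38, 36 and 48 counts in lenvatinib libraries. It rose from 0.666 ± 0.0353 to 1.5 ± 0.0335 CPM (log2 fold change 1.16 ± 0.27, edgeR adjusted p = 0.00082), with all 3 lenvatinib libraries higher. Chadl was at 2.95 ± 0.209 and 3.71 ± 0.826 CPM and Podn, which encodes the class V protein podocan, at 0.301 ± 0.0917 and 0.394 ± 0.140 CPM without and with lenvatinib (edgeR adjusted p = 0.158 and 0.624). Without the third lenvatinib library Chadl passed (log2 fold change 0.49, edgeR adjusted p = 0.032). Lum, the class II gene for lumican, had 13, 8 and 11 counts in untreated and 5, 1 and 4 counts in lenvatinib libraries, too few for the filter. With no filter on low counts its log2 fold change was -1.65 ± 0.61 (edgeR adjusted p = 0.0476), the opposite sign to its class II relatives, and when 1 library was left out it entered the fit in 3 of the cases, at edgeR adjusted p = 0.0184 to 0.114. Kera and Chad had 0 counts in every library, where a floor of 3 counts per library corresponds to 0.0926 to 0.122 CPM, and Epyc, Nyx and Nepn had 0 to 2. Such floors cover counting error only, and a row at or near 0 in this table is not read as an absent transcript.

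Levels between genes were compared per length, as CPM per kilobase of the deposited feature length. In untreated cells the order was Bgn (385 ± 11.8), Ogn (133 ± 1.68), Prelp (15.4 ± 0.854), Dcn (11.8 ± 0.777), Podnl1 (10.4 ± 0.328), Aspn (6.48 ± 0.772), Tsku (4.10 ± 0.196), Omd (2.23 ± 0.0767), Fmod (1.42 ± 0.167) and Ecm2 (1.14 ± 0.0162), and the ranges of neighbours in that order did not overlap. With lenvatinib Bgn (321 ± 3.09), Ogn (241 ± 10.2) and Prelp (51.1 ± 1.76) kept the top places. Omd moved from place 8 to place 4 (12.6 ± 0.89), ahead of Podnl1 (11.2 ± 0.0935) and Dcn (11.1 ± 0.108), whose ranges overlapped. Aspn (8.63 ± 0.711) and Fmod (7.92 ± 0.236) also overlapped, and Tsku (4.35 ± 0.0214) and Ecm2 (1.78 ± 0.301) came last. The deposited feature lengths, such as 6102 bases for Bgn and 5838 for Dcn, exceed the longest coding transcript in GENCODE M21 (2419 and 1758 bases). With those transcript lengths, an alternative chosen after seeing the data, Dcn took place 3 in untreated cells and place 4 with lenvatinib, Omd took place 6 with lenvatinib, and Bgn and Ogn stayed at the top.

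The make-up of the family transcript pool differed between the groups. Per length, Bgn made up 66.8, 68.1 and 67.4% of the 10 genes' sum in the untreated and 47.1, 48.4 and 48.2% in the lenvatinib libraries. Ogn went the other way, from 23.3 ± 0.61 to 35.9 ± 0.963%, and Prelp from 2.70 ± 0.156 to 7.63 ± 0.382%. Omd and Fmod remained small, at 1.87 ± 0.12 and 1.18 ± 0.0292% with lenvatinib against 0.391 ± 0.022 and 0.248 ± 0.0291% without. These gains of 1.48 and 0.933 percentage points were 0.705 and 0.446 with the GENCODE transcript lengths and 0.628 and 0.551 without division by length. The ratio of Bgn to Ogn was 2.81, 3.01 and 2.86 in untreated and 1.27, 1.36 and 1.37 in lenvatinib libraries. The summed level of the 10 genes was 3335 ± 75.1 CPM in untreated and 3787 ± 58.2 CPM in lenvatinib libraries, 13.6% higher. The 8 genes other than Bgn and Ogn summed to 227, 237 and 224 CPM in untreated and to 453, 455 and 463 CPM in lenvatinib libraries. In such bulk RNA, fewer cells of a type and less RNA per cell cannot be told apart.

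**Figure D3:**
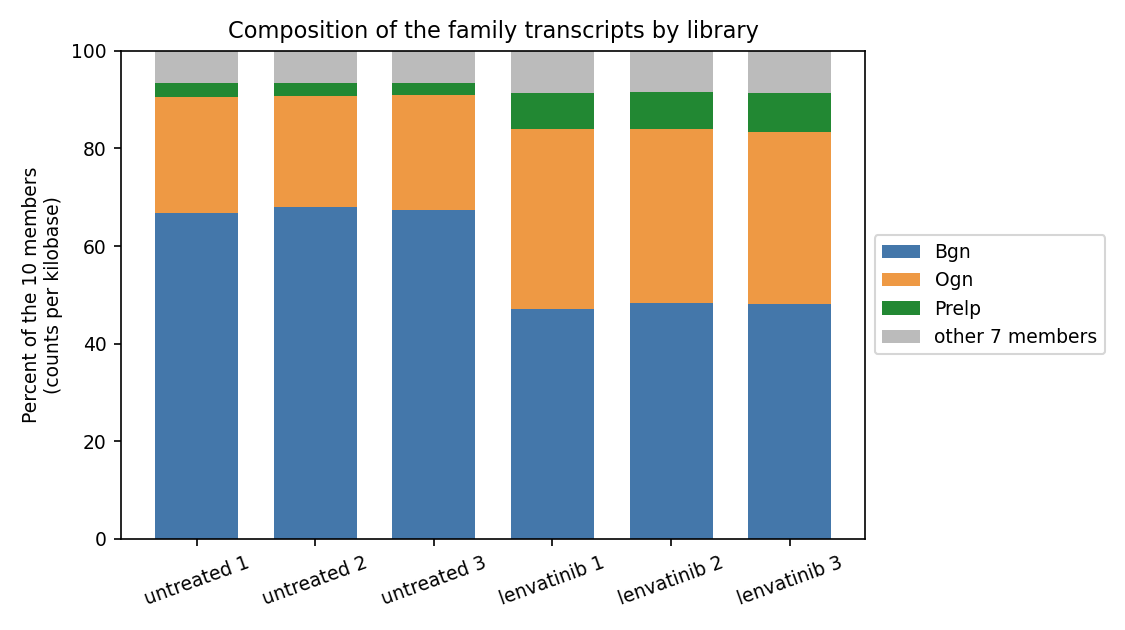
Stacked bars, 1 per library, of each gene's percent of the summed counts per kilobase of the 10 family genes, with Bgn, Ogn and Prelp drawn singly and the other 7 together. Bgn takes 66.8 to 68.1% of each untreated bar and 47.1 to 48.4% of each lenvatinib bar.

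Most family genes lie in 3 gene clusters, an arrangement that goes back to gene duplication. On chromosome 13 Ecm2, Aspn, Omd and Ogn follow each other on the plus strand over 119.7 kb with gaps of 11.7, 14.9 and 15.2 kb and no other row between them. All 4 were called higher, yet Omd, with a log2 fold change of 2.49, stood far above Aspn (0.41) and Ogn (0.86) on either side. All 4 also lie inside the span of Cenpp, a centromere protein gene on the minus strand, which stood at 2.28 ± 0.378 CPM in untreated and 3.26 ± 0.833 CPM in lenvatinib libraries (log2 fold change 0.50 ± 0.18, edgeR adjusted p = 0.0364). Whether strand was used in counting is not known here, so reads of Cenpp and of the 4 genes cannot be fully told apart; Cenpp's level was below that of each of them, in CPM and per kilobase. The call on Cenpp was lost with DESeq2 (adjusted p = 0.106), with limma-voom (adjusted p = 0.0892), with the replicate number as a block (edgeR adjusted p = 0.0509), and without the first untreated library, the third untreated library or the first lenvatinib library (edgeR adjusted p = 0.182, 0.0538 and 0.33).

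On chromosome 1 Optc and Prelp lie 2.31 kb apart on the minus strand, and Fmod lies on the plus strand 116 kb from Prelp. All 3 were higher, and none of the 5 other rows within this 151.1 kb had enough counts for the fit. Optc lies downstream of Prelp on their shared strand. It stood at 0.666 CPM in untreated and 1.5 CPM in lenvatinib libraries, against 74.4 and 247 CPM for Prelp. Whether some reads counted for Optc came from Prelp transcripts was not tested. On chromosome 10 Dcn was present, while Lum, Kera and Epyc beside it had few or no counts. Of 61 further rows within 100 kb of the 10 genes, 22 were tested, and 3 were called higher and 2 lower, against 28.2% of all tested rows. These are Optc, Cenpp and Ippk (higher) and Zswim4 and Palm3 (lower, both near Podnl1). Ippk, Zswim4 and Palm3 are named after their values were seen. Without the third untreated library Cenpp and Ippk were not called (edgeR adjusted p = 0.0538 and 0.097), and without the third lenvatinib library Ippk was not (edgeR adjusted p = 0.0738). Of the nearest named neighbours, pseudogenes and predicted genes left aside, Cc2d1a and Dcaf15 beside Podnl1 were at 100.2 ± 0.558 and 35.7 ± 1.2 CPM in untreated and at 96.1 ± 1.43 and 33.3 ± 0.875 CPM in lenvatinib libraries, and neither was called (edgeR adjusted p = 0.191 and 0.174). Brme1, at 0.625 ± 0.268 and 0.326 ± 0.0784 CPM, was not called either (edgeR adjusted p = 0.0777) but was lower without the first untreated library (edgeR adjusted p = 0.0283), and Atp2b3 near Bgn had too few counts.

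**Figure D4:**
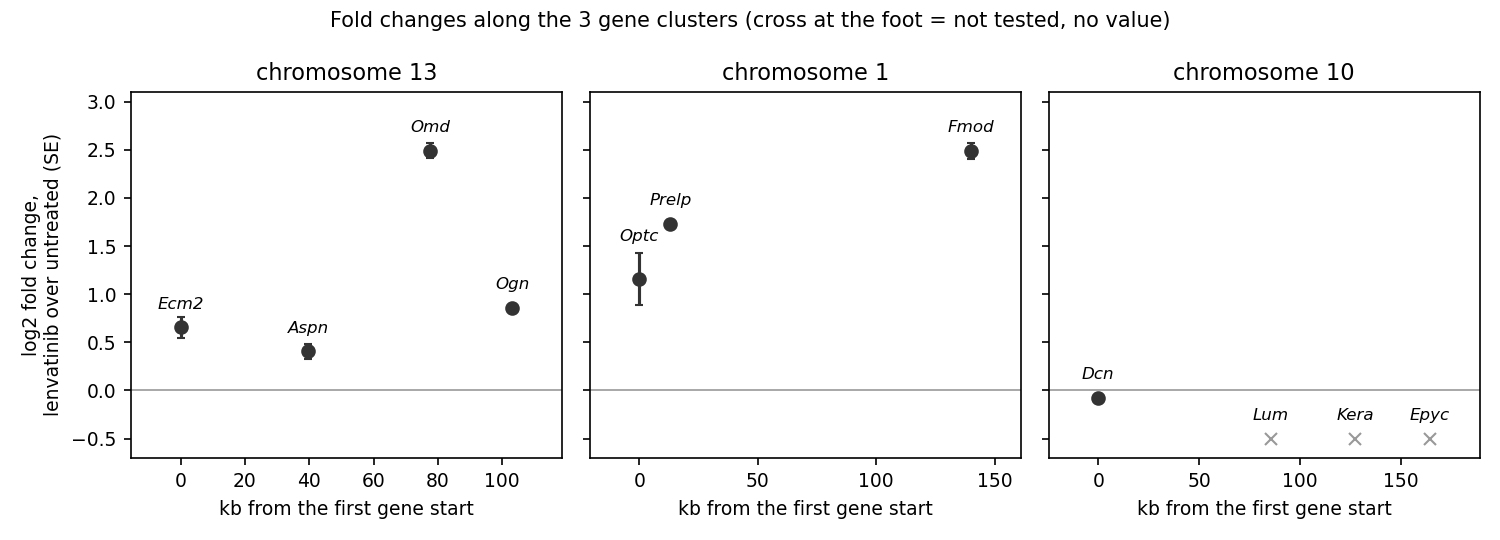
Log2 fold change with SE of the family genes in the clusters on chromosomes 13, 1 and 10 against the distance in kb of each gene's first base from that of the first family gene; crosses at the foot are genes with too few counts. Omd on chromosome 13 and Fmod on chromosome 1 stand highest, at 2.49 each.

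The collagens that these proteoglycans bind were mostly higher. Of 12 tested genes 9 rose and 3 did not pass in the edgeR fit, with a median log2 fold change of 0.55. Over all tested rows 28.2% were called, 13.3% higher and 14.9% lower. This list and the partner lists below were chosen with earlier results of these data known. Nothing is therefore read from the difference between their shares or medians and those of all rows. Col6a2 and Col6a1, chains of the microfibrillar collagen VI that biglycan and decorin bind, rose by 0.63 ± 0.03 and 0.57 ± 0.03 (edgeR adjusted p = 4.48e-22 and 2.23e-20). Col5a1 and Col11a1, chains of the minor fibrillar collagens that start and limit fibrils, rose by 0.58 ± 0.03 and 1.42 ± 0.07 (edgeR adjusted p = 1.59e-21 and 9.82e-21). Col11a1 went from 13.1 ± 1.2 to 34.9 ± 1.94 CPM. The 3 that did not pass, named after their values were seen, were Col3a1 (-0.02 ± 0.02), Col6a3 (-0.50 ± 0.13) and Col12a1 (0.67 ± 0.19), with edgeR adjusted p = 0.636, 0.0538 and 0.073. Col6a3, the third chain of collagen VI, was called lower with DESeq2 (adjusted p = 0.00098), limma-voom (adjusted p = 2.56e-05), library totals as the scaling (edgeR adjusted p = 0.0494), a minimum mean of 5 CPM (edgeR adjusted p = 0.0448) and without the first lenvatinib library (edgeR adjusted p = 6.33e-07). Col12a1 was called higher with DESeq2 (adjusted p = 0.00282) and limma-voom (adjusted p = 2.63e-05).

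Genes that build and sulfate the sugar chains moved both ways. Of 38 tested genes 10 rose, 11 fell and 17 did not pass, with a median log2 fold change of -0.0026. Over all tested rows 28.2% were called. With DESeq2 6 of the 38 genes were called higher and 9 lower. Of the 6 tested genes for the linker that joins a chain to its core protein 1 fell and 5 did not pass. Ugdh, which makes the UDP-glucuronic acid used in chondroitin and heparan sulfate, fell from 108 ± 3.39 to 78.2 ± 2.40 CPM (-0.47 ± 0.04, edgeR adjusted p = 5.63e-14). In the chondroitin and dermatan sulfate group 5 of 15 rose and 5 fell, and the sulfotransferase gene Chst12 rose by 0.45 ± 0.07 (edgeR adjusted p = 4.88e-07). Of 9 tested genes of keratan sulfate and tyrosine sulfation, modifications carried by some class II proteins, 3 rose and 4 fell. Named after their values were seen, the tyrosine sulfation genes Tpst1 and Tpst2 rose by 0.29 ± 0.06 and 0.19 ± 0.03. Of the genes listed for keratan sulfate B4galt4 rose, while B4galt1, Chst1, Chst2 and Fut8 fell. The call on Chst1 was lost with DESeq2 (adjusted p = 0.069), and that on Chst2 without the first untreated library (edgeR adjusted p = 0.0527). The galactosyltransferase genes B4galt4 and B4galt1 went in opposite directions, by 0.47 ± 0.06 and -0.25 ± 0.03 (edgeR adjusted p = 4.76e-08 and 1.21e-08).

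Among growth factors, receptors and other partners that family members are known to bind, 8 of 20 tested genes rose, 5 fell and 7 did not pass. Their median was 0.03, and 28.2% of all tested rows were called. Tgfb2 rose from 59.96 ± 4.27 to 85.9 ± 1.01 CPM and Tgfb3 from 353 ± 2.75 to 435 ± 9.76 CPM (edgeR adjusted p = 5.62e-13 and 4.70e-12), while Tgfb1 fell from 103 ± 2.00 to 92.5 ± 4.16 CPM (edgeR adjusted p = 0.00052). Ccn2, a matricellular partner of decorin, rose from 184 ± 14.1 to 439 ± 3.12 CPM, and the Wnt receptor gene Fzd4 rose by 0.60 ± 0.09. Named after their values were seen, the myostatin gene Mstn and Bmp6 were higher at low levels. Mstn had 6, 3 and 8 counts in untreated and 20, 19 and 20 in lenvatinib libraries (1.77 ± 0.42, edgeR adjusted p = 0.00108). Bmp6 went from 1.12 ± 0.188 to 2.67 ± 0.355 CPM (1.23 ± 0.21, edgeR adjusted p = 1.22e-05). Both were left out at a minimum mean of 5 CPM. The growth factor receptor genes Egfr and Igf1r, both bound by decorin, fell by 0.33 ± 0.05 and 0.33 ± 0.05 on the log2 scale. Tlr4, an innate immune receptor for soluble biglycan, fell by 0.17 ± 0.04. Utrn, which encodes the dystrophin relative utrophin, fell by 0.11 ± 0.04 with overlapping groups (edgeR adjusted p = 0.0422) and was not called with the replicate number as a block (adjusted p = 0.0549) or in 4 of the 6 fits with 1 library left out (edgeR adjusted p = 0.0805 to 0.166).

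Of 12 tested proteases and inhibitors that process or spare these proteins 3 rose, 5 fell and 4 did not pass, with a median of -0.04. The share called over all tested rows was 28.2%. The inhibitor genes Timp3 and Timp1 went in opposite directions, by 0.88 ± 0.03 and -0.43 ± 0.03 (edgeR adjusted p = 1.10e-27 and 3.80e-15). Adamts4, an aggrecanase that also cleaves some family members, fell by 0.34 ± 0.04, and the membrane protease gene Mmp14 fell by 0.21 ± 0.03. Mmp2 rose by 0.12 ± 0.03 and Pcolce, an enhancer of procollagen processing, by 0.41 ± 0.09. Bmp1, the gene for the protease named above with osteoglycin, is named here after its values were seen. It fell from 191 ± 3.58 to 176 ± 1.41 CPM (-0.12 ± 0.03, edgeR adjusted p = 0.00107).

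Other proteoglycan families gave 5 higher, 3 lower and 8 not called of 16 tested genes, with a median of 0.00932. The share called over all tested rows was 28.2%. The cell surface glypican gene Gpc6 rose from 48.1 ± 1.82 to 94.1 ± 2.00 CPM (0.97 ± 0.04, edgeR adjusted p = 4.97e-23). Cd44 and Spock2 rose by 0.26 ± 0.03 and 0.31 ± 0.04. Sdc1, a syndecan, and Tgfbr3, the TGF-beta co-receptor betaglycan, fell by 0.24 ± 0.03 and 0.36 ± 0.07, and the lubricin gene Prg4 fell by 0.79 ± 0.15. Prg4 was at a low level, 5.06 ± 0.747 CPM in untreated and 2.92 ± 0.0898 CPM in lenvatinib libraries. It was left out at a minimum mean of 5 CPM.

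**Figure D5:**
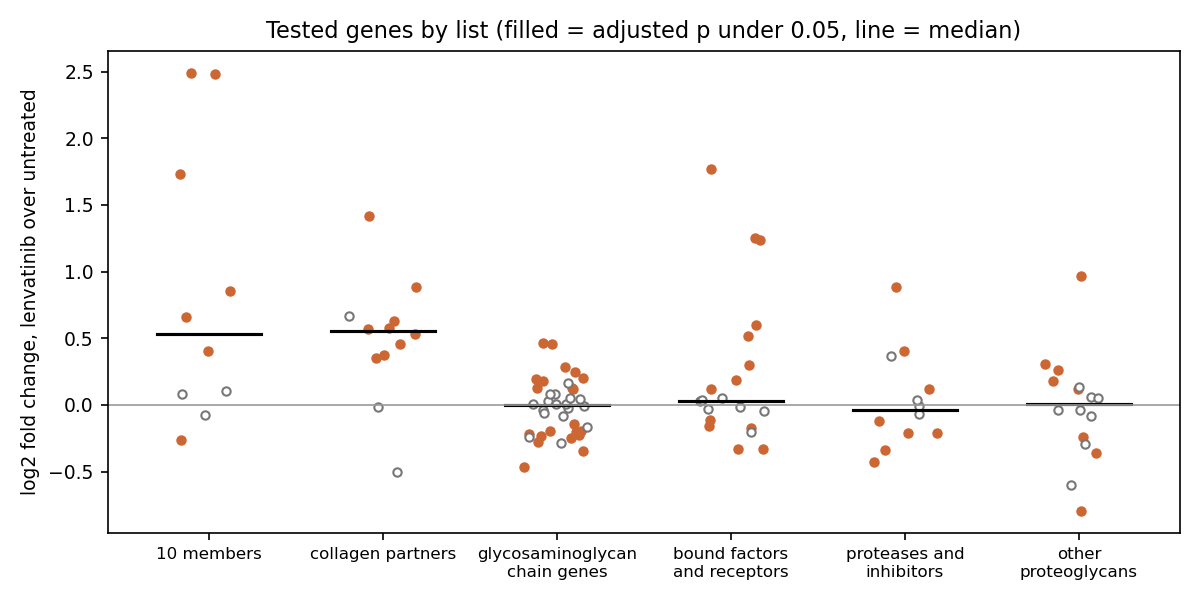
Log2 fold change (lenvatinib over untreated, vertical axis) of each tested gene in the 10-gene family set and 5 partner lists; filled points passed an adjusted p of 0.05 over all rows and lines are medians. The medians of the family and the collagen partners are 0.53 and 0.55, and those of the other 4 lists lie between -0.04 and 0.03. The family set and the lists were chosen with earlier results of these data known.

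Marker levels of other cell types were compared beside these results. The 3 tenocyte markers summed to 260 to 269 CPM in untreated and 342 to 366 CPM in lenvatinib libraries. Nearly all of it came from Scx, which rose (0.42 ± 0.03, edgeR adjusted p = 2.39e-15). Mkx, with 9 to 12 counts per library, was not called (-0.10 ± 0.43, edgeR adjusted p = 0.899), and Tnmd had 0 to 7 counts per library. The 6 osteoblast markers summed to 1560.15 to 1599.56 and 431 to 458 CPM, nearly all of it Spp1, with Ibsp at 0 counts. Spp1 and Runx2 were lower (-1.92 ± 0.03 and -0.26 ± 0.06), and Sp7 was not called (edgeR adjusted p = 0.85). Bglap and Alpl had too few counts for the fit. Fibroblast markers summed to 345 to 357 and 326 to 348 CPM, most of it from Pdpn, with 3 of 5 tested genes higher and 2 lower. Mfap5, Cd248 and Ly6a were higher (log2 fold changes 0.96 ± 0.06, 0.34 ± 0.08 and 0.29 ± 0.06). Pdgfra and Pdpn were lower (-0.41 ± 0.08 and -0.26 ± 0.03). The 5 chondrocyte markers summed to 32.3 to 36.6 and 31.0 to 33.2 CPM, with Acan and Col9a1 at 0 counts. Macrophage markers summed to at most 1.25 and endothelial markers to at most 1.43 CPM. The 4 adipocyte markers summed to 16.4 to 19.3 and 10.5 to 11.4 CPM, nearly all of it from Cebpa, which fell (-0.70 ± 0.08, edgeR adjusted p = 2.40e-09), while Adipoq and Lep had 0 to 1 counts per library and Plin1 had 0. Among the muscle markers Myog and Myod1, regulators of muscle differentiation, were 1.21-fold and 1.18-fold higher (edgeR adjusted p = 6.51e-12 and 9.86e-08). The genes for the filament protein desmin (Des) and for slow troponin T (Tnnt1) were 1.14-fold and 1.22-fold lower (edgeR adjusted p = 1.02e-08 and 7.96e-07). The part of these cell types in the proteoglycan differences was not tested.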

How the data were processed

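The deposited table holds raw read counts per gene row for 6 libraries of C2C12 cells, 3 untreated and 3 with lenvatinib; the authors aligned reads with Hisat2 2.0.1, per the labels' protocols, and HTSeq 0.6.1 and build mm10 are named in the submitters' processing notes. The deposited positions are not those of mm10 (GRCm38). Bgn starts at 72527208 on chromosome X as deposited, while the GRCm38.p6 sequence before its start ends at 73483600. The deposited feature length in bases (unit other) served for values per kilobase. Library kit, read filters and strand setting: not given in the sources used here. Here edgeR 4.0.16 (R 4.3.3) was run on all rows: filterByExpr (minimum count 10, minimum total count 15), TMM factors (0.9956 to 1.007), glmQLFit with robust estimation and glmQLFTest, with Benjamini-Hochberg adjusted p-values under 0.05 called. CPM, folds and SE were computed here from the counts, and SE from the F statistic. The fit was tested on simulated data. Chi-square per degree of freedom between libraries of a group was 2.78 to 5.6, so none was a copy.

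The members and lists were chosen with earlier results of these data known. Named are the members, all other family genes, up to 4 genes per list with the smallest p, genes moving against a list's majority where 5 or fewer, and the 6 nearest neighbours within 100 kb that have a symbol and are neither predicted genes nor pseudogenes. Alternatives covered 3 scalings, 2 filters, a stricter threshold, limma-voom (limma 3.58.1), DESeq2 1.42.0, a replicate block, leaving out each library, and another length. Same-numbered libraries were not treated as paired.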

Additional observations from a re-analysis of the deposited data

How the results depend on the processing

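The 10 genes gave 6 higher and 1 lower call under all 15 alternatives, and the log2 fold change of each kept its sign; the widest ranges were 0.558 to 0.784 for Ecm2 and 0.339 to 0.51 for Aspn. Over all rows 4228 genes were called, 3319 with DESeq2, and 3618 to 3797 when 1 library was left out. With the replicate number as a block 4134 were called, and the block changed no call among the 10 genes but ended those on Cenpp and Utrn; deviations of same-numbered libraries correlated at 0.0217, -0.0782 and -0.00417, so the numbers were not taken as pairs. The other family genes gave 2 calls with no filter (Optc and Lum) and 0 at a mean of at least 5 CPM, where none was left to test, and 1 to 2 when 1 library was left out. Neighbouring genes gave 3 to 6 calls when 1 library was left out. For the 46 genes named by the fixed rules and tested in the main fit, the alternatives gave 684 single-gene values. Of these 669 kept direction and side of the threshold, 13 lost the call, 2 gained it and 0 reversed. Genes named after their values were seen, such as Col6a3, Col12a1 and Ippk, are not in this count. Lum, untested in the main fit, and settings in which a filter left a gene out are not in it either.

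Shares depended on the length used. With counts not divided by length, the difference in share (lenvatinib minus untreated, percentage points) was 4.29 for Prelp, 0.628 for Omd, 0.551 for Fmod and -0.0658 for Podnl1; with the longest GENCODE M21 coding transcript it was 3.02, 0.705, 0.446 and -0.0431, and -17.6 for Bgn and -0.0155 for Tsku. No direction changed. Depth limits the 6 family genes left out by the filter, Lum among them.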
